A study of Rattus norvegicus with 35 samples.

Results

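The results concern 10 liver genes outside the cytochrome P450 family: App, Birc7, Ccdc126, Adgrv1, Tle1, Tmx4, Elapor1, Ahctf1, Champ1 and Mbnl3. They are 10 of the 14217 rat genes represented on the array and have 16 of its 31042 tested probe sets. They were picked because earlier results on these same arrays showed them shifted against control in 1 or more triazole groups, so the differences from control below describe the choice and carry no test. App and Ahctf1 have 3 probe sets each, Champ1 and Tmx4 have 2 each, and 6 genes have 1. Unless another probe set is named, a gene is given by its probe set of highest mean score.

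The animals were individual Wistar Han IGS rats, fed from gestation day 6 to postnatal day 92, and RNA of each liver was hybridised to 1 Affymetrix rat genome array. The groups were control feed at 0 ppm (7 rats), myclobutanil at 500 ppm (5) and 2000 ppm (4), propiconazole at 500 ppm (3) and 2500 ppm (4), and triadimefon at 500 ppm (5) and 1800 ppm (4). The sources used here give neither sex nor litter, so littermates within a group cannot be told from unrelated rats. The deposited value is a score whose scale, log base and centring are unstated there, so a difference of scores is not a fold change, and scores of different probe sets are not set against each other.

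Triazole fungicides carry a triazole ring that binds the haem iron of cytochromes P450 and block the fungal lanosterol demethylase needed for ergosterol. In rodent liver they are known for inducing drug-metabolising enzymes through the nuclear receptors CAR and PXR. Of the 3, propiconazole holds a cyclic ketal, triadimefon a ketone group and myclobutanil a nitrile. As a reference for that response, the Cyp2b probe set (annotated to both Cyp2b1 and Cyp2b2) differed from control by 1.45 and 1.72 score units at 500 and 2000 ppm myclobutanil, by 1.48 and 2.22 at 500 and 2500 ppm propiconazole, and by 1.49 and 2.93 at 500 and 1800 ppm triadimefon. The 3 high levels passed the limma threshold used below and the 3 groups at 500 ppm did not, with adjusted p = 0.734, 0.527 and 0.0501 in limma.

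The 10 genes encode proteins of unlike function. App is the amyloid precursor protein, a membrane glycoprotein cut by secretases, and Adgrv1 is a very large adhesion G protein-coupled receptor known in humans as an Usher syndrome gene. Birc7 (livin) belongs to the inhibitor of apoptosis proteins, which bind caspases or their antagonists. Elapor1 is a transmembrane protein of endosomes and lysosomes linked to autophagy, Tmx4 is a thioredoxin-related membrane protein of the endoplasmic reticulum, and Ccdc126 is a little-studied coiled-coil protein. Tle1 is a Groucho-family transcriptional corepressor, Ahctf1 (ELYS) seeds nuclear pore assembly on chromatin, Champ1 is a zinc finger protein that aids chromosome alignment in mitosis, and Mbnl3 is a muscleblind regulator of alternative splicing.

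Promoter sequence is shown for 4 of the genes whose score differed from control in the same direction in all 6 treated groups, 1 higher and 3 lower, so that the letters upstream can be read beside the values. On assembly GRCr8 (RefSeq), each line holds the 250 bases just before the outer start of the gene, 5′ to 3′ on the gene's own strand. The windows are Birc7 at chr3:188425142-188425391 (plus), Ccdc126 at chr4:79628233-79628482 (plus), Adgrv1 at chr2:13647408-13647657 (minus) and Elapor1 at chr2:198856498-198856747 (minus). Capitals mark matches, on either strand, to GCGTG (the core of the xenobiotic response element) or AGTTCA (a hexamer bound by nuclear receptors).
Birc7: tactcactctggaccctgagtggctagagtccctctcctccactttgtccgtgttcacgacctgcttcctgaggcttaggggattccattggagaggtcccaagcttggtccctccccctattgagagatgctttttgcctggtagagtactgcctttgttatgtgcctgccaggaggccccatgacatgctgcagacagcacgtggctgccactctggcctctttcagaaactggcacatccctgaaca
Ccdc126: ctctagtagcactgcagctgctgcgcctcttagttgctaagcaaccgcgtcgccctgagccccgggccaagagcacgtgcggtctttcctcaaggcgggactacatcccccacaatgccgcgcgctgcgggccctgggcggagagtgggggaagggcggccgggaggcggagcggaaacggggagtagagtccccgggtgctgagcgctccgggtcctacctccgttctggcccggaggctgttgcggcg
Adgrv1: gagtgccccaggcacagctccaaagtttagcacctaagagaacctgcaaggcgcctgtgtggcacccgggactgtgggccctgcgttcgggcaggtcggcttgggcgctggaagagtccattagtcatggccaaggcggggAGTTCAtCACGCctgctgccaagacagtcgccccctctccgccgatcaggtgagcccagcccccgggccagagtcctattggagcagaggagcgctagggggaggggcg
Elapor1: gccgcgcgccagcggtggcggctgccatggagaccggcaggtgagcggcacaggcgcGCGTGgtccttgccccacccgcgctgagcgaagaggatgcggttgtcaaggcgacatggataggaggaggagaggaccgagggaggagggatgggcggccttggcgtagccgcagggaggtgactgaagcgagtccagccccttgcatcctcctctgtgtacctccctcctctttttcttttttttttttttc
Adgrv1 held 1 GCGTG, on the minus strand, and 1 AGTTCA 1 base before it, and Elapor1 held 1 GCGTG. Birc7 and Ccdc126 held neither. AGGTCA, another such hexamer, and TGACNNNGC, the antioxidant response element, were in none of these 4 windows. Among all 33469 RefSeq promoter windows cut to the same length, 25.9% held GCGTG, 12.2% AGTTCA, 14.1% AGGTCA and 10.1% TGACNNNGC. The matches of different motifs share no letters. A match is a run of letters and shows no binding. Tmx4 (2 GCGTG) and Ahctf1 (1 GCGTG) have windows of the same kind, App, Tle1 and Mbnl3 have windows that do not lie at the outer gene start, and Champ1 has none in the table.

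A pair of array features touches the results. The first is the 3′–5′ difference, the score of the 3′ minus that of the 5′ control probe sets, averaged over GAPDH and β-actin, a reading of RNA integrity that is higher where the 5′ end is lost. It was 1.30 ± 0.595 in the controls (SD, n = 7), 1.21 ± 0.849 at 500 ppm myclobutanil (n = 5) and 1.49 ± 0.375 at 1800 ppm triadimefon (n = 4), against means of 0.519 to 0.694 in the other 4 groups. There were 9 arrays with a GAPDH difference above 0.9, controls 4 to 7, replicates 1 and 5 of 500 ppm myclobutanil and replicates 2 to 4 of 1800 ppm triadimefon. Replicate 1 of that triadimefon group and control 2 had lower GAPDH differences, though their averages over both genes were 1.17 and 1.11. The second is the animal number in the titles, which is above 3000 for controls 5 to 7 and replicates 2 to 4 of 1800 ppm triadimefon and lower for all others. The extraction protocol names testis while titles and labelling protocol name liver. The mean score of 8 hepatocyte markers lay between 3.62 and 6.15 on every array, and that of 8 testis markers between -0.17 and 0.73. By group the testis mean ran from 0.08 (1800 ppm triadimefon) to 0.40 (500 ppm myclobutanil), with 0.14 in controls. Among the testis markers Prm1 had the highest mean over all arrays, 1.11. The 2 lists hold different probe sets, so their means are not on a shared scale.

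**Figure D1:**
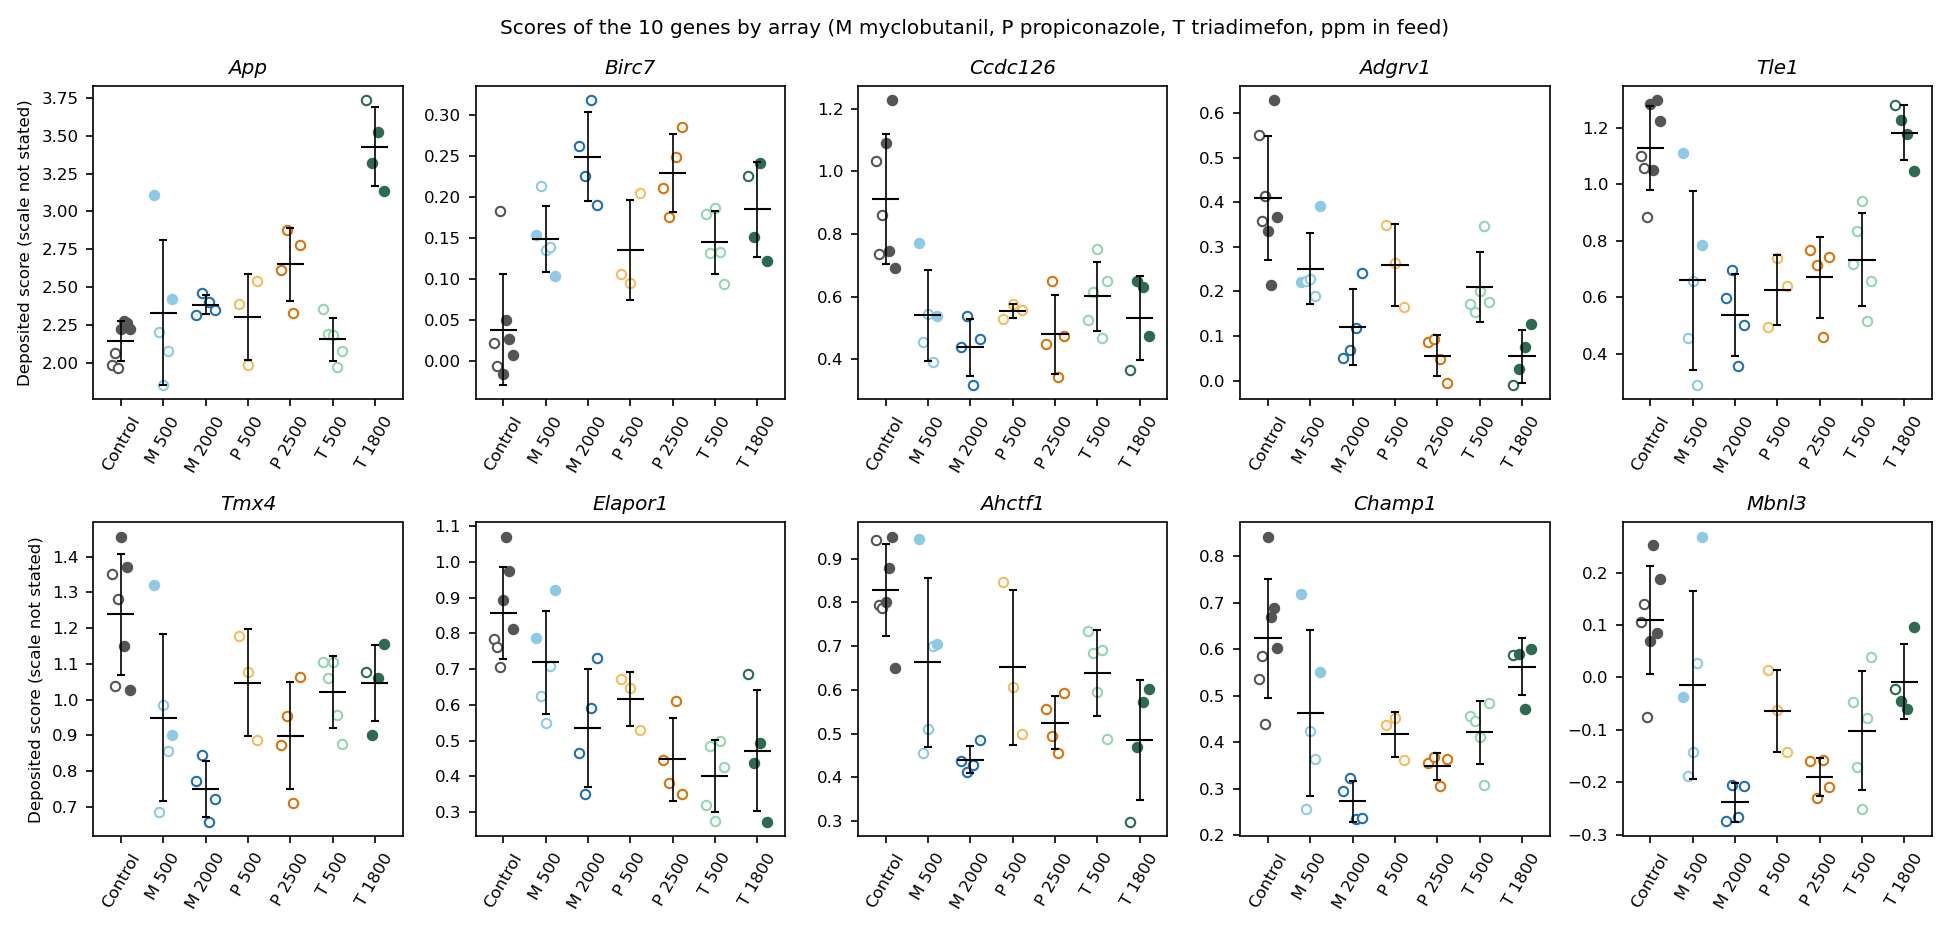
Deposited score (vertical axis, arbitrary units) of each gene on every array, by group on the horizontal axis. Each point is 1 rat, filled points are the 9 arrays with a GAPDH 3′–5′ difference above 0.9, and bars give mean ± SD. App at 1800 ppm triadimefon lies at 3.13 to 3.73, above all controls (1.97 to 2.27), while 8 genes lie mostly below control, with Tle1 at 1800 ppm triadimefon (1.05 to 1.28) among its controls (0.89 to 1.30).

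App and Birc7 had a higher mean than control in all 6 treated groups. Ccdc126, Adgrv1, Tmx4, Elapor1, Ahctf1, Champ1 and Mbnl3 had a lower mean in all 6, and Tle1 in 5. Leaving out 1 rat turned the sign of App at 500 ppm of myclobutanil (to -0.0047) and of triadimefon (to -0.04). Under the other alternative settings 3 signs turned: Ahctf1 at 500 ppm myclobutanil reached 0.0044, Champ1 at 1800 ppm triadimefon 0.07, and Tle1 at 1800 ppm triadimefon ran from -0.06 to 0.27. All members were fitted together with all probe sets in limma, with a Benjamini-Hochberg adjusted p of 0.05 as the threshold. At 2000 ppm myclobutanil 8 of 10 passed (1 higher, 7 lower), where 0.0644% of all probe sets did (0.00966% higher, 0.0548% lower). At 2500 ppm propiconazole 5 passed (1 higher, 4 lower; 0.254% of all probe sets, 0.132% higher and 0.122% lower), at 500 ppm triadimefon 1 (lower; 0.00966%) and at 1800 ppm triadimefon 6 (2 higher, 4 lower; 1.17%, with 1.04% higher and 0.129% lower). None passed at 500 ppm of myclobutanil or propiconazole, where 0% of all probe sets did, though 7 and 8 members had an unadjusted p under 0.05 among 1281 and 2866 such probe sets. Since these contrasts chose the genes, nothing is read from the counts. Quantile normalisation of the scores changed the split of calls over all probe sets, from 3 higher and 17 lower to 43 and 36 at 2000 ppm myclobutanil, from 0 and 3 to 20 and 21 at 500 ppm triadimefon, and from 322 and 40 to 305 and 127 at 1800 ppm triadimefon. Of the members past the threshold at 1800 ppm triadimefon, Birc7 was nearest to it (0.15 ± 0.03, SE, adjusted p = 0.0254 in limma). The nearest that did not pass was Tmx4 (-0.19 ± 0.09, adjusted p = 0.467), well outside it. The arrays came from whole liver, in which fewer cells of a type and less RNA per cell cannot be told apart.

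**Figure D2:**
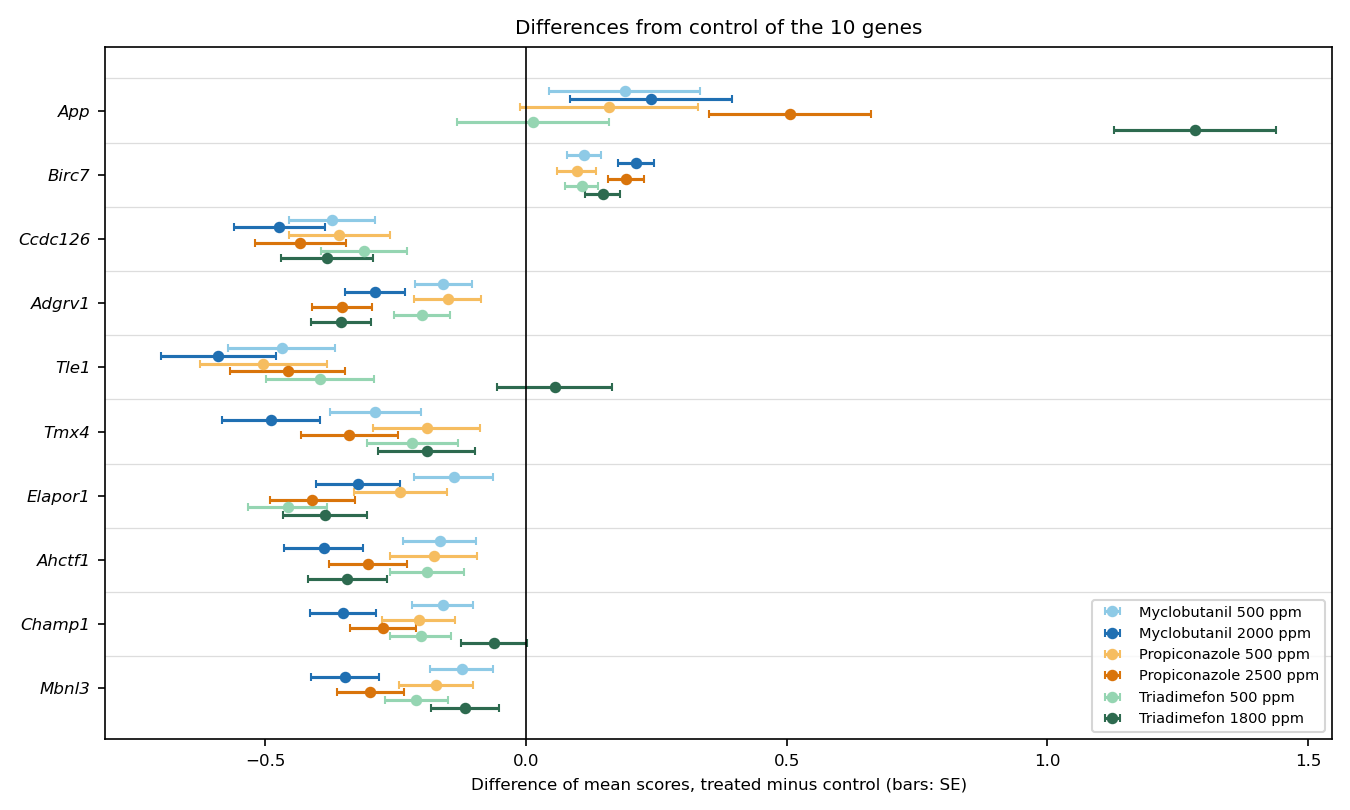
Difference of mean scores from the 7 controls (horizontal axis, score units) for each gene and treated group, with SE from the fit as bars. App at 1800 ppm triadimefon stands at 1.28 while Birc7, the other higher gene, is at most at 0.21, and Tle1 is at -0.40 to -0.59 in 5 groups and at 0.06 at 1800 ppm triadimefon.

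App (chromosome 11, 37506207 to 37724351 on GRCr8) had its highest scores at 1800 ppm triadimefon. The 4 rats there read 3.73, 3.32, 3.53 and 3.13, a mean of 3.43 ± 0.260 (SD, n = 4), and the 7 controls ran from 1.97 through a median of 2.23 to 2.27 (mean 2.14 ± 0.134). The groups did not overlap, and the difference was 1.28 ± 0.16 (SE). At 2500 ppm propiconazole the 4 scores were 2.62, 2.88, 2.33 and 2.78, and at 2000 ppm myclobutanil 2.32, 2.46, 2.40 and 2.35. Both sets lay above every control, by 0.51 ± 0.16 and 0.24 ± 0.16 on average. The low levels overlapped the controls: 2.36, 2.19, 2.19, 1.98 and 2.08 at 500 ppm triadimefon, 2.39, 1.98 and 2.54 at 500 ppm propiconazole, and 3.11, 2.20, 1.86, 2.08 and 2.42 at 500 ppm myclobutanil. The 3.11 belongs to replicate 1, the array with the largest 3′–5′ difference of all (2.45). Without it the difference at 500 ppm myclobutanil was -0.0047 instead of 0.19. That array was also the highest of its group for Ccdc126, Tle1, Tmx4, Ahctf1 and Champ1, 6 of the 10 genes in all.

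The 3 App probe sets gave the same direction and unlike sizes. Probe set 1371572_at read 2.24, 1.77, 2.08 and 1.86 at 1800 ppm triadimefon against controls of 0.77 to 1.17 (median 1.02), a difference of 0.99 ± 0.10 (SE). It also lay above every control at 2500 ppm propiconazole (1.54 to 1.95, difference 0.81 ± 0.10), at 2000 ppm myclobutanil (1.46 to 1.67, difference 0.56 ± 0.10) and at 500 ppm triadimefon (1.18 to 1.42, difference 0.33 ± 0.09). Probe set 1380533_at differed most at 2500 ppm propiconazole, by 0.62 ± 0.14, and also stood above every control at 2000 ppm myclobutanil (0.45 ± 0.14) and 500 ppm triadimefon (0.42 ± 0.13). In the 1800 ppm triadimefon group it read 0.67, -0.11, 0.27 and -0.11, inside and above controls of -0.13 to 0.34, a difference of 0.14 ± 0.14. The 2 rats at -0.11 carry the larger 3′–5′ differences of that group, 1.86 and 1.77.

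**Figure D3:**
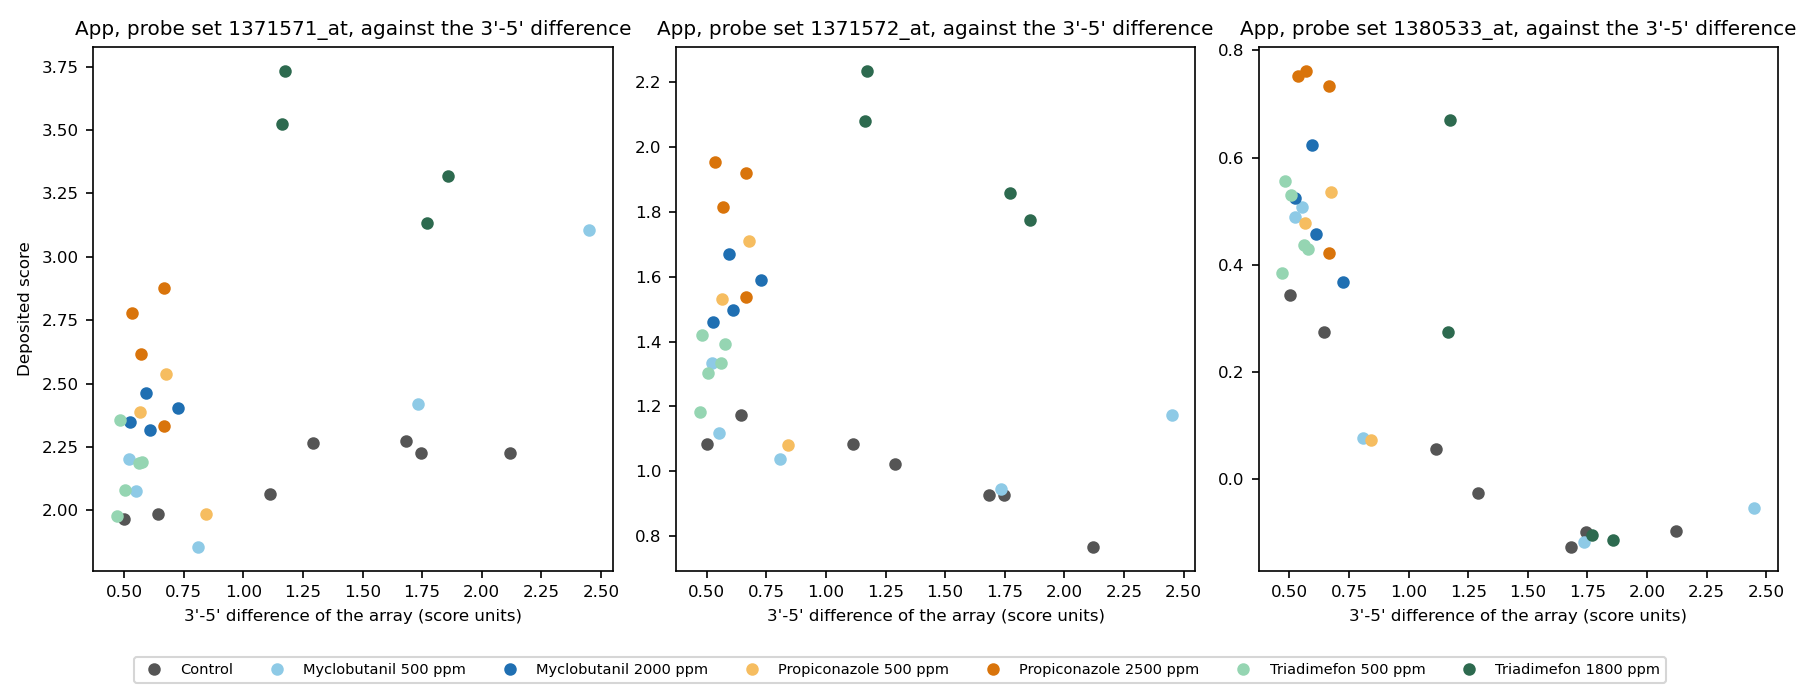
Scores of the 3 App probe sets (vertical axes, score units) against the 3′–5′ difference of the array (horizontal axes, score units), 1 point per rat, coloured by group. Triadimefon at 1800 ppm lies above the controls of like 3′–5′ difference in the first 2 panels. Its differences there from all controls, of high and low 3′–5′ difference together, are 1.28 and 0.99. In the third panel the controls of low 3′–5′ difference lie between 0.06 and 0.34 and those of high difference between -0.13 and -0.03.

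Cell type markers moved with the 1800 ppm triadimefon group. The mean score of 7 Kupffer cell markers was 1.47 (1.198 to 1.63) against 1.09 (0.88 to 1.34) in controls, and none of the 7 passed the test. That of 9 stellate cell markers was 0.59 (0.55 to 0.67) against 0.42 (0.37 to 0.48), with Col1a2 and Rgs5 past the threshold. For 5 biliary cell markers it was 0.16 (0.08 to 0.20) against 0.00 (-0.04 to 0.02), with Epcam past the threshold. Epcam differed by 0.72, while the median difference of the 5 biliary markers was 0.03, beside 0.02 over all probe sets. The hepatocyte mean was 4.63 (4.15 to 5.38) against 4.30 (3.73 to 4.90). The part of these shifts in the App values, and in the other values at 1800 ppm triadimefon, was not tested. In other groups where most of the 10 genes were lower, the 8 hepatocyte markers had median differences from control of -0.42 (2000 ppm myclobutanil), -0.30 and -0.28 (500 and 2500 ppm propiconazole) and -0.45 (500 ppm triadimefon). At 500 ppm myclobutanil the median was 0.12. Their part in the lower scores was not tested.

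Birc7 (chromosome 3, 188425392 to 188430174) had low scores in control liver: from -0.016 through a median of 0.021 to 0.182. Scores were 0.26, 0.23, 0.32 and 0.19 at 2000 ppm myclobutanil, above every control, and 0.21, 0.17, 0.25 and 0.28 at 2500 ppm propiconazole. In the 1800 ppm triadimefon rats they were 0.23, 0.15, 0.24 and 0.12. One control, replicate 3 at 0.182, overlapped the last 2 groups, while the other 6 controls did not exceed 0.050. The differences were 0.21 ± 0.03, 0.19 ± 0.03 and 0.15 ± 0.03 (SE) in the 3 groups in that order, and 0.10 to 0.11 at 500 ppm of each compound. Set against every control, only the 2000 ppm myclobutanil group did not overlap. Setting control replicate 3 aside was a choice made after its score was seen. Only with that choice did the lowest rat of every treated group, at 0.093 or above, exceed the controls.

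Adgrv1 (chromosome 2, 13067149 to 13647407) was lowest at the high levels of triadimefon and propiconazole. Controls ran from 0.21 through 0.37 to 0.63, with a mean of 0.41 ± 0.139 (SD, n = 7). The 4 rats at 1800 ppm triadimefon read -0.01, 0.03, 0.07 and 0.13, and those at 2500 ppm propiconazole 0.09, 0.09, 0.05 and -0.01. Neither group overlapped the controls, and the differences were -0.36 ± 0.06 and -0.35 ± 0.06 (SE). At 2000 ppm myclobutanil the scores were 0.05, 0.07, 0.12 and 0.24, of which 1 overlapped the lowest control. All 3 of the 500 ppm groups overlapped the controls, with differences of -0.16, -0.15 and -0.20 for myclobutanil, propiconazole and triadimefon.

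Elapor1 (chromosome 2, 198777323 to 198856497) was the one member past the threshold at 500 ppm triadimefon. The 5 rats there read 0.32, 0.48, 0.27, 0.50 and 0.43, below every control (0.71 through 0.81 to 1.07), and differed by -0.46 ± 0.08 (SE). At 1800 ppm of the same compound the scores were 0.69, 0.44, 0.49 and 0.27, also below the controls, a difference of -0.39 ± 0.08. At 2500 ppm propiconazole they were 0.45, 0.38, 0.61 and 0.35, and at 500 ppm 0.67, 0.65 and 0.53, again without overlap. Myclobutanil at 2000 ppm (0.47, 0.35, 0.59 and 0.73) overlapped the controls by 1 rat, and at 500 ppm (0.55 to 0.92) by several. The call at 500 ppm triadimefon was lost without any single 1 of the 5 treated rats or of controls 4, 5 and 6, with an adjusted p of up to 0.144, and the difference then ran from -0.48 to -0.42.

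Ccdc126 (chromosome 4, 79628483 to 79649513) had controls from 0.69 through 0.86 to 1.23. It read 0.44, 0.54, 0.32 and 0.46 at 2000 ppm myclobutanil, 0.45, 0.65, 0.34 and 0.47 at 2500 ppm propiconazole, and 0.37, 0.65, 0.63 and 0.47 at 1800 ppm triadimefon. None of these 12 rats reached the lowest control. The differences of -0.47 ± 0.09, -0.43 ± 0.09 and -0.38 ± 0.09 (SE) were close to the -0.37, -0.36 and -0.31 at 500 ppm of the same compounds, where propiconazole (0.53, 0.58 and 0.56) also stayed below every control.

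Tmx4 (chromosome 3, 142309026 to 142352415) differed most at 2000 ppm myclobutanil, where the rats read 0.77, 0.84, 0.66 and 0.72 against controls of 1.03 through 1.28 to 1.46. These groups did not overlap, and the difference was -0.49 ± 0.09 (SE). In the other 5 groups the ranges overlapped and the differences ran from -0.34 to -0.19. The second Tmx4 probe set, 1397194_at, had control scores of -0.15 to 0.04 and differed from control by -0.06 to 0.04 in the 6 groups.

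Tle1 (chromosome 5, 90898182 to 90982118) was lower everywhere but at 1800 ppm triadimefon. Controls ran from 0.89 through 1.10 to 1.30. The scores were 0.60, 0.70, 0.36 and 0.50 at 2000 ppm myclobutanil, 0.77, 0.71, 0.46 and 0.74 at 2500 ppm propiconazole, and 0.50, 0.74 and 0.64 at 500 ppm propiconazole, all below every control. The differences there were -0.59 ± 0.11, -0.46 ± 0.11 and -0.50 ± 0.12 (SE). At 500 ppm triadimefon the difference was -0.40 ± 0.10 and 1 rat (0.94) overlapped. The rats on 1800 ppm triadimefon read 1.28, 1.23, 1.18 and 1.05, within the control range, a difference of 0.06 ± 0.11.

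Champ1 (chromosome 16, 82436172 to 82447144) followed a like order of groups. It read 0.29, 0.32, 0.24 and 0.24 at 2000 ppm myclobutanil and 0.35, 0.37, 0.31 and 0.36 at 2500 ppm propiconazole, below every control (0.44 through 0.60 to 0.84), with differences of -0.35 ± 0.06 and -0.28 ± 0.06 (SE). On 1800 ppm triadimefon it read 0.59, 0.59, 0.47 and 0.60, within the control range, a difference of -0.06 ± 0.06. Its second probe set, 1380008_at, gave -0.24 ± 0.06, -0.22 ± 0.06 and -0.09 ± 0.06 in the same 3 groups.

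Ahctf1 (chromosome 13, 94013894 to 94068348) was lowest at 2000 ppm myclobutanil, with 0.44, 0.41, 0.43 and 0.48 against controls of 0.65 through 0.80 to 0.95. Propiconazole at 2500 ppm (0.56, 0.50, 0.46 and 0.59) and triadimefon at 1800 ppm (0.30, 0.47, 0.57 and 0.60) also stayed below every control. The differences were -0.39 ± 0.08, -0.30 ± 0.08 and -0.34 ± 0.08 (SE). Probe set 1392502_at gave -0.42, -0.30 and -0.32 in the same groups. Probe set 1381611_at did not follow: it gave -0.10, -0.01 and -0.31, and its controls spread from 0.21 to 0.93.

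Mbnl3 (X chromosome, 135526256 to 135621499) had low scores. Controls ran from -0.08 through 0.11 to 0.25, and the rats at 2000 ppm myclobutanil read -0.27, -0.20, -0.27 and -0.21. Those at 2500 ppm propiconazole read -0.16, -0.23, -0.16 and -0.21. Neither group overlapped the controls, with differences of -0.35 ± 0.06 and -0.30 ± 0.06 (SE). With 1800 ppm triadimefon the range of -0.06 to 0.10 lay within that of the controls.

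Counting groups that did not overlap the controls, 8 of 10 genes met this at 2000 ppm myclobutanil (2 higher, 6 lower, where 3.57% of all probe sets did, 0.332% higher and 3.24% lower). There were 8 at 2500 ppm propiconazole (1 higher, 7 lower; 2.83%, with 0.767% higher and 2.07% lower) and 5 at 1800 ppm triadimefon (1 higher, 4 lower; 1.41%, with 1.18% higher and 0.226% lower). There were 3 at 500 ppm propiconazole, all lower (1.85%, with 0.287% higher and 1.56% lower), 1 at 500 ppm triadimefon, lower (2.34%, with 0.132% higher and 2.2% lower), and 0 at 500 ppm myclobutanil (0.0773%, with 0.0322% higher and 0.0451% lower). The 6 comparisons share their control rats, and these counts follow from the choice of genes.

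Dose levels were compared within each compound. These contrasts use treated arrays that also served the choice of genes, so counts past the threshold are printed beside the background and nothing is read from them. For triadimefon, App was higher at 1800 than at 500 ppm by 1.27 (95% interval 0.93 to 1.61) and Tle1 by 0.45 (0.21 to 0.69), without overlap between the groups. They were 2 of 10 genes past the threshold in a contrast where 24.8% of all probe sets passed (22.3% higher, 2.46% lower, being 6927 and 763 probe sets against 1661 and 1340 after quantile normalisation) and whose 3′–5′ differences (1.16 to 1.86 against 0.469 to 0.577) did not overlap. With the 3′–5′ difference added to the fit or with the number series as a block, 1 of 10 passed. No background is printed for these settings. A further 2 probe sets differed between the triadimefon levels: App 1371572_at by 0.66 and Ahctf1 1381611_at by -0.38. The remaining App probe set, 1380533_at, was at -0.29 (-0.58 to 0.01), the other direction. Adgrv1 at 1800 minus 500 ppm was -0.16 (-0.28 to -0.03), without overlap and not past the threshold. For myclobutanil, 2000 against 500 ppm, and propiconazole, 2500 against 500 ppm, no member and 0% of all probe sets passed in limma. At an unadjusted p under 0.05 there were 6 members among 3404 probe sets and 2 among 365. The largest of the 6 in size were -0.22 for Mbnl3 (-0.37 to -0.08) and -0.22 for Ahctf1 (-0.39 to -0.06), and the 2 with propiconazole were Adgrv1 at -0.20 (-0.35 to -0.06), without overlap, and Birc7 at 0.09 (0.01 to 0.18). App between the propiconazole levels was at 0.35, with an interval of -0.04 to 0.74 that includes 0. The App probe set 1371572_at differed by 0.43 (0.21 to 0.66) between the myclobutanil levels, whose rats did not overlap in it.

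The high levels of 2000, 2500 and 1800 ppm differ, so the compounds were compared only at 500 ppm. The 3 pairs of compounds were set against each other for each of the 10 genes. These arrays also served the choice of genes, and Elapor1 was the one member past the threshold against control at 500 ppm triadimefon, so its p-values and overlap here are no independent evidence. In limma none passed, with an adjusted p over all probe sets of 0.236 or more, and 0% of all probe sets did. At an unadjusted p under 0.05 there was Elapor1 in both pairs with triadimefon and no other gene of the 10. Over all 31042 probe sets there were 5934 for myclobutanil minus triadimefon and 772 for propiconazole minus triadimefon. Elapor1 was higher with myclobutanil, the nitrile, than with triadimefon, the ketone, by 0.32 (95% interval 0.15 to 0.49, adjusted p = 0.236 in limma), and higher with propiconazole, the cyclic ketal, than with triadimefon by 0.22 (0.02 to 0.41, adjusted p = 0.9997 in limma). In both pairs the rats of the 2 groups did not overlap, which held for 2.61% and 5.03% of all probe sets. For App the intervals were -0.34 to 0.40 for myclobutanil minus propiconazole, -0.15 to 0.50 for myclobutanil minus triadimefon and -0.23 to 0.52 for propiconazole minus triadimefon. For Birc7 all 3 intervals lay between -0.09 and 0.10. Of the probe sets of lower mean, App 1371572_at was at -0.32 (-0.56 to -0.08) for myclobutanil minus propiconazole, and Ahctf1 1381611_at at -0.31 (-0.49 to -0.12) for myclobutanil minus triadimefon. The mean 3′–5′ difference was 1.21 with myclobutanil, 0.694 with propiconazole and 0.519 with triadimefon at 500 ppm. Elapor1 was also higher in controls of high 3′–5′ difference (mean 0.94) than in the others (0.75), without overlap. The part of RNA integrity in the differences between compounds was not tested.

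The choice of genes did not use directly how each score moved with the 3′–5′ difference among rats of the same group. That movement is part of the spread within groups, so it is not independent of a choice made on shifts against control. In limma, with group means fitted, 3 of 10 genes rose past the threshold with the 3′–5′ difference. Of all probe sets 47.1% passed that test (37.5% higher, 9.63% lower). The slopes were 0.28 score units per unit of 3′–5′ difference for App (adjusted p = 0.0139), 0.24 for Tle1 (adjusted p = 0.00165) and 0.17 for Champ1 (adjusted p = 1.75e-05). The share of the 10 genes that passed was no larger than the background, and for the reason given nothing is read from it. Over all probe sets, 11635 rose and 2990 fell, against 5992 and 5512 after quantile normalisation. Adgrv1 (-0.02, interval -0.10 to 0.06), Ccdc126 (0.06, -0.06 to 0.18), Ahctf1 (0.07, -0.03 to 0.17), Tmx4 (0.07, -0.05 to 0.20), Elapor1 (0.08, -0.03 to 0.19), Birc7 (-0.045, -0.0897 to -0.0003) and Mbnl3 (0.09, 0.01 to 0.18) did not pass.

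The probe sets of App, and those of Ahctf1, had slopes of both signs, while both Champ1 probe sets had positive ones (0.17 and 0.04). For App they were 0.28, -0.16 (adjusted p = 0.0383 in limma) for 1371572_at and -0.35 (adjusted p = 5.19e-05) for 1380533_at. For Ahctf1 they were 0.07 for the main probe set, 0.19 (adjusted p = 0.00858) for 1392502_at and -0.21 (adjusted p = 0.000565) for 1381611_at. Of the 16 probe sets 7 passed, 4 with a positive and 3 with a negative slope. The slope of App turned from 0.28 to -0.01 after quantile normalisation of the scores, that of Tle1 to 0.12 (adjusted p = 0.131 in limma) and that of Champ1 to 0.10 (adjusted p = 0.00636), while Birc7 then passed at -0.064 (adjusted p = 0.024). Tmx4 passed with a replicate block (adjusted p = 0.0216 in limma) and Mbnl3 with trend and robust estimation (adjusted p = 0.049 in limma), so the count of 3 ran from 2 to 4 under settings that kept all arrays. Among the 23 arrays of low or the 9 of high 3′–5′ difference alone, none of the 10 genes passed.

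**Figure D4:**
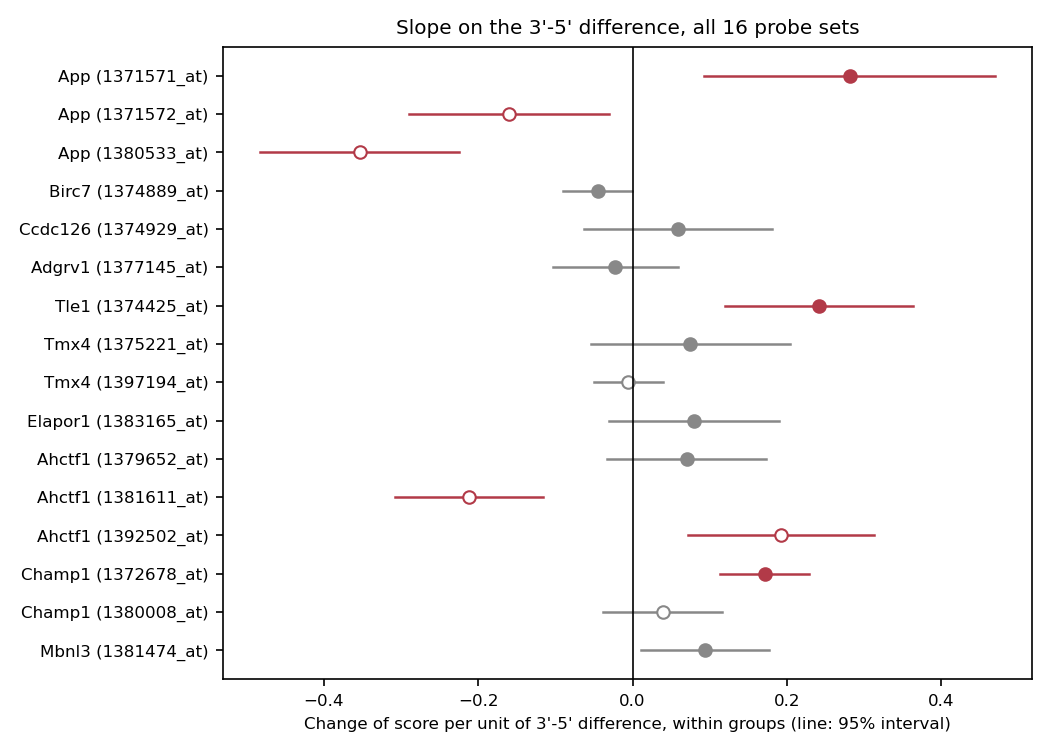
Change of score per unit of 3′–5′ difference within groups (horizontal axis) for the 16 probe sets, with 95% intervals as lines. Filled points are each gene's main probe set and red marks an adjusted p under 0.05. The 3 App probe sets lie at 0.28, -0.16 and -0.35.

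The controls hold both kinds of array, and 3 of the 4 with a high difference are also the 3 numbered above 3000. The 4 controls of high 3′–5′ difference exceeded the other 3 in App (2.23 to 2.27 against 1.97 to 2.06), Elapor1 (0.81 to 1.07 against 0.71 to 0.78) and Champ1 (0.60 to 0.84 against 0.44 to 0.59), without overlap. These are 3 of 10 genes, where 24.4% of all probe sets did not overlap between the 2 sets (17.2% higher, 7.22% lower). Their mean Tle1 score was higher by 0.20, with overlap. For the other 6 genes the 2 sets of controls overlapped and their means differed by -0.05 to 0.09.

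The differences from control were recomputed with the 3′–5′ difference added to the fit as a covariate, and again after dropping the 9 arrays of high difference. App at 1800 ppm triadimefon was 1.23 ± 0.14 (SE) with the covariate and 1.73 ± 0.19 without those arrays, which leaves 1 treated rat and 3 controls, the lone rat being assumed to vary like the others. Within the 9 arrays of high difference it was 1.08 ± 0.15, and its 1371572_at probe set 0.99 ± 0.09. Adgrv1 at 1800 ppm triadimefon was -0.35 with the covariate, -0.45 without the high arrays and -0.31 within them. Elapor1 at 1800 ppm triadimefon was -0.40 with the covariate, -0.07 without the high arrays and -0.54 within them. Champ1 went from -0.35 to -0.23 at 2000 ppm myclobutanil and from -0.28 to -0.16 at 2500 ppm propiconazole with the covariate, and Tle1 from -0.59 to -0.42 and from -0.46 to -0.29. At 1800 ppm triadimefon, without the high arrays, Champ1 was at 0.07 and Tle1 at 0.27. Within the rats numbered above 3000 (3 controls, 3 treated) App at 1800 ppm triadimefon was 1.07 ± 0.10 (SE), Adgrv1 -0.33 ± 0.10 and Elapor1 -0.55 ± 0.09. Within those numbered below 3000 (4 controls, 1 treated) they were 1.67 ± 0.29, -0.42 ± 0.09 and -0.10 ± 0.13. This treated rat, replicate 1, is the same one that remained without the high arrays, so the 2 settings are not separate checks. Its 3′–5′ difference of 1.17 was above those of the 3 controls kept with it there (0.50 to 1.11).

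**Figure D5:**
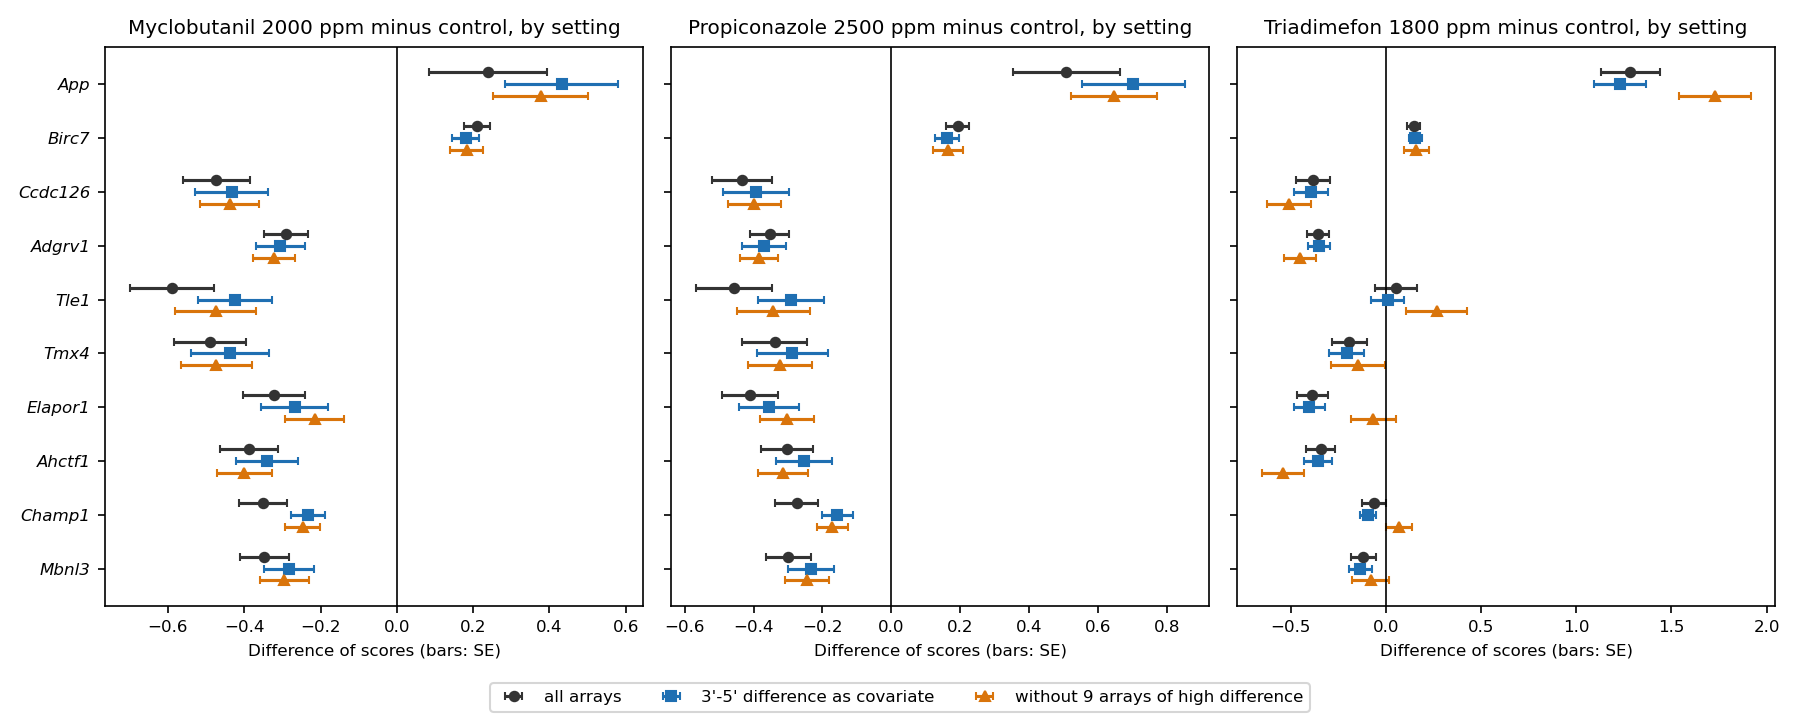
Differences from control (horizontal axes, score units, bars give SE) of the 10 genes at the high level of each compound, from all arrays (circles), adjusted for the 3′–5′ difference (squares) and without the 9 arrays of high difference (triangles). App at 1800 ppm triadimefon stays between 1.23 and 1.73, and Elapor1 there moves from -0.39 to -0.07 without the 9 arrays. Without those arrays the triadimefon values rest on 1 treated rat.

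Lists of relatives and partners of the 10 genes were counted in the same fit: 102 genes in 10 lists, of which 90 were measured. None passed in limma in the first 5 treated groups, where 0 to 0.254% of all probe sets did. At an unadjusted p under 0.05 there were 4, 25, 4, 10 and 25 in the order myclobutanil 500 and 2000 ppm, propiconazole 500 and 2500 ppm and triadimefon 500 ppm. Over all 31042 probe sets there were 1281, 7518, 2866, 6183 and 9108 in the same order, and nothing is read from these counts. At 1800 ppm triadimefon 2 of 90 (2.22%) were higher, beside 1.17% of all probe sets. These were Diablo, the mitochondrial protein that binds inhibitors of apoptosis, by 0.24 ± 0.06 (SE, adjusted p = 0.0308), and Txndc5, a protein disulphide isomerase of the endoplasmic reticulum, by 0.47 ± 0.12 (adjusted p = 0.0447). Among 13 App relatives and processing enzymes, 7 members of the inhibitor of apoptosis family and their partners, and 9 members of the Nup107 subcomplex that Ahctf1 works with, the median difference stayed within 0.05 of 0 in every group. The 13 protein disulphide isomerases and TMX proteins had a median difference of -0.25 at 2000 ppm myclobutanil, -0.19 at 500 ppm and -0.17 at 2500 ppm propiconazole and -0.30 at 500 ppm triadimefon, beside medians of -0.04 to -0.03 over all probe sets, and 0.00 at 1800 ppm triadimefon. The 7 endosome and lysosome partners of Elapor1 had medians of -0.21, -0.17, -0.11, -0.22 and 0.17 in those groups. In the groups with negative medians, the 8 hepatocyte markers also had a median difference of -0.45 to -0.28, and 0.37 at 1800 ppm triadimefon. Their part in the list medians was not tested.

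The genes most like each member were taken as the 2 with the highest Pearson r of deviations from the group means over the 32 arrays, which share their RNA integrity and scaling. App was most like Abcc2 (r = 0.90), the canalicular exporter of conjugates, and Nit1 (0.89). Champ1 was most like Rbm15 (0.90) and Zmynd8 (0.89), and Tle1 like Mafk (0.82) and Lurap1l (0.82). The neighbours of Mbnl3 were Wdpcp (0.80) and Zzef1 (0.77), those of Ahctf1 Trmt10c (0.78) and Lamtor3 (0.76), and those of Tmx4 Onecut1 (0.77) and Slc25a30 (0.77). Birc7 was most like Robo1 (0.77) and Dclk2 (0.71), and Elapor1 like Gypc (0.77) and Ddx24 (0.76). Ccdc126 was most like Atxn7l1 (0.73) and Naif1 (0.72), and Adgrv1, with the lowest values, like Zfp84 (0.67) and Nat8b (0.63). Among the members themselves, the pairs of highest r were Tle1 with Champ1 (0.73), Ahctf1 with Tmx4 (0.65) and App with Tle1 (0.62), and Mbnl3 with Birc7 was lowest (-0.57). Abcc2, Nit1, Rbm15, Zmynd8, Mafk and Lurap1l had slopes on the 3′–5′ difference of 0.13 to 0.52, all past the threshold in limma. They are the neighbours of App, Champ1 and Tle1, which passed that test themselves, so these slopes are no independent evidence. Over all probe sets 47.1% passed. Neighbours of other members that did not pass were Naif1, Nat8b, Onecut1, Slc25a30, Gypc and Lamtor3.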

How the data were processed

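Each array carries a deposited score for 31099 probe sets. The steps by which the authors made that score are unstated in the sources used here, and it was used unchanged. The series lists 35 arrays, and 3 of them (1 at 2000 ppm myclobutanil, 2 at 500 ppm propiconazole) hold no values because the submitters left them out of their final analysis, which left 32. The 57 control probe sets were left out of the tests. The platform annotation gave 1 symbol to 20826 probe sets, several to 436 and none to 9780, and a gene is represented by its probe set of highest mean score. Gene positions and promoters are RefSeq's, on GRCr8.

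All 7 groups entered 1 fit in limma 3.58.1 (R 4.3.3; lmFit, eBayes, 25 residual and 1.995 prior degrees of freedom), two-sided, with Benjamini-Hochberg adjustment over 31042 probe sets within each comparison and a threshold of 0.05. The slope on the 3′–5′ difference came from the same fit with that difference as a covariate. The fit was tested on simulated data. The p-values set a difference against the spread between arrays of the same group, 1 array per rat. That spread also holds RNA integrity and the number series, and litter is unknown. Precision is limited by how many arrays a group has. The members, the lists, the markers and the limit of 0.9 on the GAPDH difference were chosen with earlier results of these data known. The text names all 10 members, the relatives past the threshold and the 2 genes most like each member. Alternatives were quantile normalisation, a filter that drops the dimmest 40% (all 16 probe sets here were kept), the number series as a block or each series alone, the 3′–5′ covariate, arrays of high or low 3′–5′ difference left out, only the compared groups, trend and robust eBayes, a replicate block and each array left out. Same-numbered replicates were not taken as pairs.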

Additional observations from a re-analysis of the deposited data

Results flagged for a closer look

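In 4 of 60 groups of 4 to 7 rats, 1 rat stood apart from the others of its group by Dixon's criterion, and chance gives about 1 in 20. For Birc7, control replicate 3 read 0.182 while the other controls lay between -0.016 and 0.050. For Adgrv1, replicate 5 of 500 ppm myclobutanil read 0.392 (others 0.189 to 0.228) and replicate 4 of 500 ppm triadimefon 0.347 (others 0.153 to 0.201). For Champ1, replicate 3 of 1800 ppm triadimefon read 0.471 (others 0.587 to 0.602). The Adgrv1 array of 500 ppm myclobutanil and the Champ1 array are among the 9 of high 3′–5′ difference.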

How the results depend on the processing

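Of 570 recomputed differences of single genes from control, 549 moved by less than 1 SD, 21 by more, and 0 of the called ones changed sign. The filter of dim probe sets, the fit of only the compared groups and trend and robust eBayes cannot move a difference of group means. Their differences are among the 549, which therefore does not measure stability. Counts of members past the threshold also moved. The calls over all probe sets moved with the settings as well, over the ranges that close this paragraph. Member counts are not set beside the share for each setting, so nothing is read from them. The 8 at 2000 ppm myclobutanil became 0 with the number series as a block, with only rats below 3000 or with the 3′–5′ covariate, 4 once the 9 arrays with a high 3′–5′ reading were dropped, 3 with only the compared groups and 0 to 9 with 1 rat left out. They became 0 without control 4 or replicate 2, 3 or 4, 1 without control 6, 2 without replicate 5, 3 without control 5 and 5 without control 7. The 5 at 2500 ppm propiconazole became 8 after quantile normalisation, 1 with the number series as a block, rats below 3000, the covariate or no high arrays, 0 with only the compared groups, and 0 to 8 with 1 rat left out: 8 without control 1 or 3, 3 without control 5 or replicate 2 or 3, 2 without control 4 or 6, 1 without replicate 1 and 0 without replicate 4. The 1 at 500 ppm triadimefon became 0 under the block, the rats below 3000, the covariate and without the high arrays, and 0 to 7 with 1 rat left out, the 7 without control 1 or 3 and the 0 without control 4, 5 or 6 or any treated rat. The 6 at 1800 ppm triadimefon became 0 with only rats above 3000, 0 with only the high arrays (added after seeing the data), 1 with only the compared groups and 3 to 6 with 1 rat left out, the 3 without replicate 1. The 0 at 500 ppm myclobutanil became 1 without replicate 1. For 1800 against 500 ppm triadimefon the 2 became 1 under the block, the rats below 3000 or the covariate, and 4 with only the compared groups. The 3 genes past the threshold of the slope became 0 within the low or the high arrays, where fewer arrays were fitted, and the App slope became -0.01 after quantile normalisation. The cause of the other changes was not tested. Over all probe sets, calls numbered 20 at 2000 ppm myclobutanil (0 to 120 under these settings, each array kept), 79 at 2500 ppm propiconazole (9 to 311), 3 at 500 ppm triadimefon (0 to 96), 362 at 1800 ppm triadimefon (13 to 5495) and 7690 for 1800 against 500 ppm triadimefon (88 to 8386), and 14625 for the slope (392 to 14792).

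App and Adgrv1 at 1800 ppm triadimefon passed with any 1 of 11 rats left out. App also passed after quantile normalisation, with the number series as a block, the 3′–5′ covariate or a replicate block. It passed too under the filter of dim probe sets, only the compared groups and trend and robust eBayes, which leave the difference itself unchanged. It did not pass with only rats above 3000 or only high arrays. Settings with only rats below 3000 or no high arrays have 1 treated rat and are not counted here. Both genes were chosen on these same arrays, so passing again is no independent evidence.

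With the replicate number as a block the counts were 0 at 2000 ppm myclobutanil, 0 at 2500 ppm propiconazole and 0 at 500 ppm triadimefon, 5 at 1800 ppm triadimefon and 2 between the triadimefon levels. Correlations of the deviations of same-numbered rats lay on both sides of 0 in each comparison with control: at the widest from -0.666 to 0.596 at 500 ppm myclobutanil, and from -0.391 to 0.271 at 1800 ppm triadimefon, so the numbers were not taken as pairs.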
